A study of Mus musculus with 11 samples.

Results

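The replication-dependent histone genes code for the bulk histones that package newly copied DNA. They were chosen here by name alone, as the genes whose platform symbol starts with Hist1h, Hist2h, Hist3h or Hist4h, or follows the newer forms H2ac, H2bc, H3c or H4c with a number, or H1f1 to H1f5, leaving out pseudogenes. This rule found 34 of the 23185 genes that carry a symbol on the array, against 63 genes of the same form in the RefSeq table of assembly GRCm38.p6. The 34 comprise 4 genes of the linker histone H1, 9 of H2A, 11 of H2B, 7 of H3 and 3 of H4. RefSeq places 28 of them on mouse chromosome 13 and 6 on chromosome 3. H2aw, H2bu2, H4f16 and H1f6 carry newer names outside these forms and are not among them.

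Affymetrix MoGene 2.0 ST arrays were used to profile live non-parenchymal cells that had been sorted from perfused mouse livers by YFP, a yellow fluorescent protein used as a lineage label. There were 3 arrays of YFP+ cells from mice given CDE (called CDE below) and 3 of YFP+ cells from mice given DDC (DDC). The others were 2 of YFP+ cells from untreated mice (UTR) and 3 of YFP- cells (YFP-). Titles of the YFP- arrays name no diet or treatment. In hepatology CDE is a choline-deficient, ethionine-supplemented diet and DDC a diet containing diethoxycarbonyl dihydrocollidine, and both provoke the spread of bile duct-like cells. The labels give no strain, allele, age or Cre driver, and the only diet schedule they state, repeated for every array, is 4 mice on DDC for 5 weeks. All arrays carry the title of liver progenitor cells, the YFP- arrays included. Nothing in the labels ties the replicates of a group to different animals. Every p-value below therefore measures spread among arrays that could be technical replicates.

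Replication-dependent histone mRNAs are made in bulk while a cell copies its DNA and are destroyed when copying ends. They are unusual among animal mRNAs in ending in a stem-loop in place of a poly(A) tail. The stem-loop binding protein SLBP holds that end, and the U7 small nuclear ribonucleoprotein guides the cut that forms it. Core histones H2A, H2B, H3 and H4 build the nucleosome, and H1 sits on the DNA where it enters and leaves. Some of these genes also give polyadenylated transcripts in cells that have stopped dividing, so their level is not a pure measure of DNA synthesis.

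Short motifs known from histone promoters were searched for in these genes. RefSeq promoter windows of GRCm38.p6, from 250 bases before to 50 bases after the annotated start, were available for 30 of the 34 genes and were searched on both strands. The CCAAT box (CCAAT) stood in the windows of 27 of the 30 genes (90%), against 37.4% of all 32851 windows. It was found in all 4 H1, 9 H2A, 9 H2B and 5 H3 genes with a window, and in 0 of the 3 H4 genes. A TATA box (TATAAA) stood in 20 genes (66.7%), against 13.6% of all windows. The octamer ATTTGCAT, an element known from H2B promoters, stood in 10 genes (33.3%), 5 of them H2A and 5 H2B, against 1.74% of all windows. The short H1 box (AAACACA) stood in 6 genes (20%), against 7.18% of all windows. They were 3 of the 4 H1 genes, H1f2, H1f3 and H1f4, and also H2ac1, H2ac4 and H2bc1. Windows of genes that start head to head can overlap, so 1 match can count for both genes. The octamer 59 bases before the start of H2bc8 also lies in the window of H2ac8, which starts 180 bases away. Counts of genes are therefore not counts of separate motifs. These matches are descriptions of the letters and do not show that a factor binds.

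The H1 box of the 3 linker histone genes with the largest CDE minus UTR differences is in capitals in these 30-base stretches, read on the gene's strand.
H1f2, chr13:23738683-23738712, plus strand: gtgaagtgtaacAAACACAagttgggcgca
H1f3, chr13:23554898-23554927, plus strand: ttgaggggcaacAAACACAgccacaaggca
H1f4, chr13:23622656-23622685, minus strand: ttgaggtgtaacAAACACAactccgcatct

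The octamer is in capitals in 4 H2B genes. H2bc8 and H2bc18 are the H2B genes that lay above UTR on every array of both diets together with an unadjusted p under 0.05, while H2bc3 and H2bc6 carry the same letters and did not.
H2bc8, chr13:23571330-23571359, plus strand: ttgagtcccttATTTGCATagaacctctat
H2bc18, chr3:96269641-96269670, plus strand: tgtgaaacctcATTTGCATacaagctctat
H2bc3, chr13:23746633-23746662, plus strand: ttgagtctcttATTTGCATaaagcctttga
H2bc6, chr13:23586019-23586048, minus strand: agtaagacttaATTTGCATaagactgccta

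The CCAAT box, or its reverse complement ATTGG, is in capitals in 5 of the genes whose DDC arrays all lay above every UTR and CDE array.
H2ac10, chr13:23533768-23533797, plus strand: tatacaagctaccATTGGtttaggtaaaac
H2ac22, chr13:21787302-21787331, minus strand: aagaagaagccagCCAATcgcgtaggctct
H2bc7, chr13:23574274-23574303, minus strand: catccgtcataaaCCAATcaaaggtgccct
H2bc13, chr13:21716257-21716286, minus strand: atcccttgttttgATTGGactgttagtaca
H2bc15, chr13:21753976-21754005, plus strand: agcccttgctatgATTGGgtatttggtgga

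All values are the deposited log2 values, whose base was inferred from their range of 2.55 to 13.57. Array medians over all genes ran from 5.70 to 5.77 in YFP+ and from 5.63 to 5.71 in YFP-. The histone genes varied more between arrays of a group than the typical gene did. Their median SD was 0.351 in DDC against 0.152 over all genes, 0.156 against 0.124 in CDE, 0.185 against 0.105 in UTR and 0.668 against 0.261 in YFP-. The biliary identity of the YFP+ arrays was checked on 7 marker genes, whose mean level was 9.84 to 9.92 in CDE, 9.98 to 10.19 in DDC and 10.03 to 10.07 in UTR, against 4.59 to 7.71 in YFP-. In YFP- the endothelial list reached 10.25 to 11.85 and the macrophage list 8.33 to 11.60, against at most 6.03 and 6.86 on any YFP+ array, so the YFP- arrays hold other liver cell types and go against their title.

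**Figure D1:**
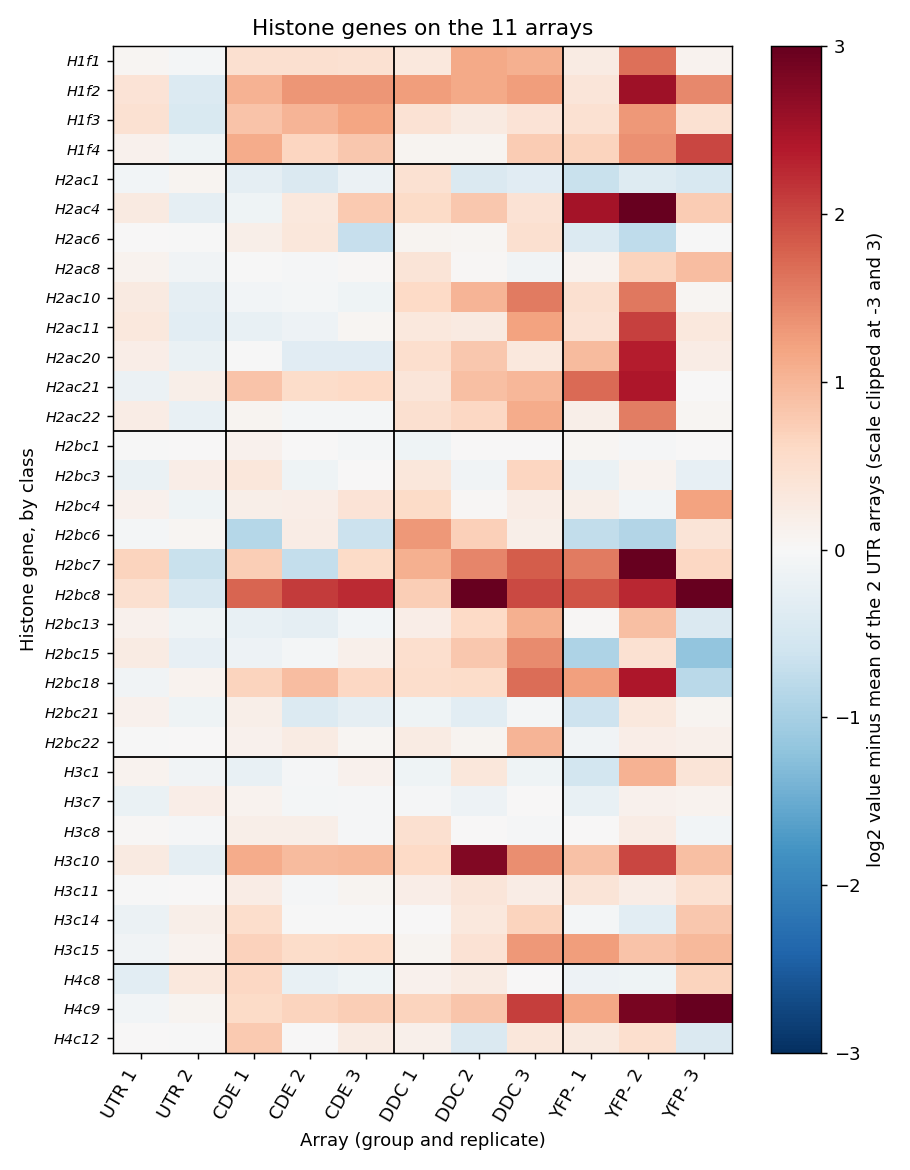
Heat map of the 34 histone genes (rows, ordered by class and separated by lines) on the 11 arrays (columns), coloured by the log2 value minus the mean of the 2 UTR arrays, with the colour scale clipped at -3 and 3. H2bc8 is red in every CDE and DDC array, H2ac10, H2ac22 and H2bc15 turn red in DDC but not in CDE, and YFP- replicate 2 holds many of the darkest cells.

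Probes of different genes differ in brightness, so the level of a gene was used only to tell bright from dim. In the YFP+ arrays 24 of the 34 genes lay above the lower quartile of all genes, 4.32, and 10 lay below it. The brightest feature of each class, averaged over the 8 YFP+ arrays, was H1f2 at 7.43 for H1, H2ac22 at 9.08 for H2A, H2bc13 at 11.20 for H2B, H3c14 at 6.70 for H3 and H4c12 at 8.71 for H4. The 10 dim genes were H1f1, H2ac4, H2ac8, H2ac11, H2bc1, H2bc22, H3c1, H3c7, H3c8 and H3c11. H2bc1, a testis-type H2B gene, stayed between 2.88 and 3.15 on all 11 arrays. H2ac1, the testis-type H2A gene that shares its promoter region with H2bc1, ran from 4.51 to 5.65. Near-identical histone genes may share probe signal, because how probes were assigned and summarised is not given in the sources used here.

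The first question was whether biliary lineage cells under DDC injury carried more histone mRNA than untreated ones. Most histone genes had higher values in DDC, and none passed the test after adjustment. The difference was positive for 30 of the 34 genes, against 52.8% of all genes, and its median was 0.50 log2 units against 0.01 over all genes. All 3 DDC arrays lay above both UTR arrays for 18 of the 34 genes, against 12.7% of all genes, and below both for 0, against 11.8%. The genes with the largest differences were H2bc8, H3c10, H2bc7, H1f2 and H4c9, at 2.28-fold to 3.79-fold, and they come from 4 classes.

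With limma and Benjamini-Hochberg adjustment over all genes, 0 of the 34 passed an adjusted p of 0.05, whereas 37 of all genes passed (0.16%, with 0.0949% higher and 0.0647% lower). At an unadjusted p under 0.05, 14 histone genes were higher and 0 lower, against 4.74% and 5.69% of all genes. The 14 were H1f1, H1f2, H2ac10, H2ac20, H2ac21, H2ac22, H2bc7, H2bc8, H2bc13, H2bc15, H2bc18, H3c10, H3c11 and H4c9. That count was 4 when the YFP- arrays entered the fit, where 0 of all genes passed the adjusted threshold. Among the fits that left out 1 array it was lowest without UTR replicate 2. The share of all genes at an unadjusted p under 0.05 in these fits was not counted. The median was 0.30 without DDC replicate 3, which held the highest DDC value for 19 of the 34 genes.

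**Figure D2:**
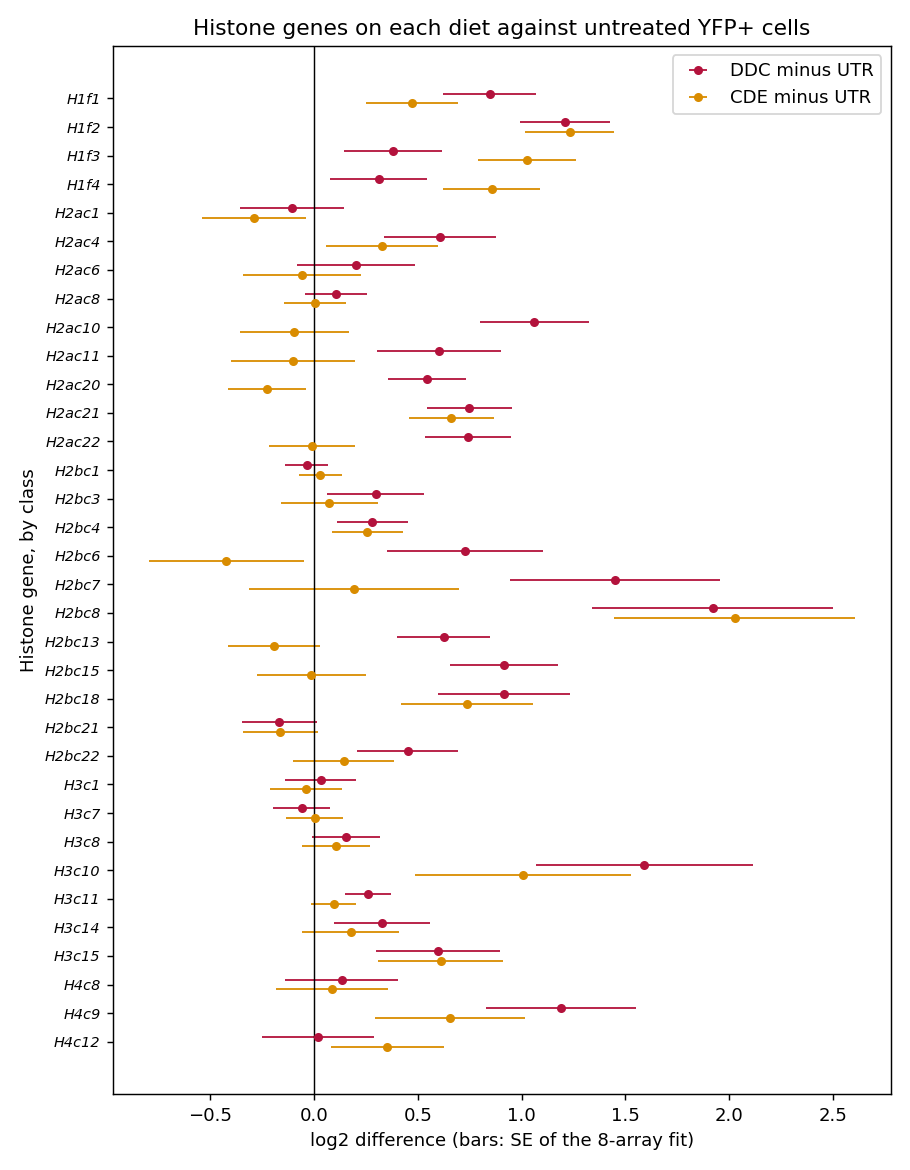
Fitted log2 differences of the 34 histone genes (rows, by class) for DDC minus UTR (red) and CDE minus UTR (orange), with bars of 1 SE from the fit of 8 YFP+ arrays. Red points lie right of 0 for 30 genes, while orange points lie right of 0 for 23 and are farthest right for H2bc8, H1f2, H1f3 and H3c10. Both series use the same 2 UTR arrays.

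Among the linker histones, H1f2 (older name Hist1h1c), a major somatic H1 that is also made outside S phase, stood at 6.92 and 6.10 in UTR and at 7.75, 7.64 and 7.76 in DDC. The groups did not overlap, and the DDC arrays had a mean of 7.72 ± 0.06 (SD, n = 3). The difference was 1.21 ± 0.22 (SE), or 2.31-fold, with an adjusted p of 0.102, the lowest of the 34 genes. The difference was 1.61 without UTR replicate 1 and 0.80 without UTR replicate 2, so its size depended on which UTR array was kept. H1f1 (Hist1h1a), a dim gene linked to dividing cells, stood at 3.81 and 3.71 in UTR and at 4.08, 4.90 and 4.83 in DDC. Its difference was 0.85 ± 0.22, and it passed only without DDC replicate 1, at 1.11 with an adjusted p of 0.0461. H1f3 and H1f4, further somatic H1 genes, had DDC values that overlapped UTR, with differences of 0.38 ± 0.24 and 0.31 ± 0.23.

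In the H2A class, whose members form the outer faces of the nucleosome with H2B, 8 of 9 genes had a positive difference. All DDC arrays lay above UTR for 6 of them. The shares over all genes were 52.8% and 12.7%. H2ac10 (Hist1h2af) stood at 7.74 and 7.21 in UTR and at 8.07, 8.49 and 9.04 in DDC. The difference was 1.06 ± 0.26, or 2.09-fold, with an adjusted p of 0.199. H2ac22 (Hist1h2an), the brightest H2A gene, stood at 9.04 and 8.58 in UTR and at 9.29, 9.43 and 9.93 in DDC. DDC replicate 3 was the highest array for both genes, and the gap between the groups was narrow, from UTR replicate 1 to DDC replicate 1. H2ac20 (Hist2h2ac), from the chromosome 3 cluster, stood at 7.99 and 7.59 in UTR and at 8.30, 8.59 and 8.10 in DDC. H2ac21 (Hist2h2ab), its neighbour in that cluster, stood at 5.31 and 5.65 in UTR and at 5.84, 6.38 and 6.47 in DDC. The differences were 0.74 ± 0.21 for H2ac22, 0.54 ± 0.19 for H2ac20 and 0.75 ± 0.21 for H2ac21.

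In the H2B class 9 of 11 genes had a positive difference, and all DDC arrays lay above UTR for 7, against 52.8% and 12.7% of all genes. H2bc8 (Hist1h2bg) stood at 5.68 and 4.72 in UTR and at 5.95, 8.24 and 7.17 in DDC. Its difference of 1.92 ± 0.58, or 3.79-fold, was the largest of the 34, but the DDC arrays spread over more than that difference and the adjusted p was 0.293. H2bc7 (Hist1h2bf) stood at 6.96 and 5.61 in UTR and at 7.36, 7.76 and 8.09 in DDC, a difference of 1.45 ± 0.51 with an adjusted p of 0.369. The groups stayed apart by the distance from UTR replicate 1 to DDC replicate 1, and the UTR arrays themselves were far apart. H2bc15 (Hist1h2bn) stood at 9.71 and 9.22 in UTR and at 9.97, 10.28 and 10.88 in DDC. H2bc13 (Hist1h2bl), the brightest of all 34, stood at 11.16 and 10.92 in UTR and at 11.24, 11.64 and 12.11 in DDC. Their differences were 0.92 ± 0.26 (adjusted p 0.26) and 0.62 ± 0.22, and in both the DDC replicate 1 array lay just above UTR. H2bc18 (Hist2h2bb) had a difference of 0.91 ± 0.32, carried by DDC replicate 3 at 7.26 against 6.13 and 6.15 in the others.

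Among H3 genes, H3c10 (Hist1h3h) stood at 4.94 and 4.39 in UTR and at 5.26, 7.45 and 6.06 in DDC. The difference was 1.59 ± 0.52 with an adjusted p of 0.337, and DDC replicate 2 stood far above the other DDC arrays. H3c15 (Hist2h3c2) stood at 4.53 and 4.73 in UTR and at 4.70, 5.06 and 5.92 in DDC, which overlap. H3c14, the brightest H3 gene, differed by 0.33 ± 0.23. Among H4 genes, H4c9 (Hist1h4i) stood at 4.08 and 4.27 in UTR and at 4.84, 5.02 and 6.25 in DDC. The groups did not overlap, and the difference was 1.19 ± 0.36, or 2.28-fold, with an adjusted p of 0.294. H4c12 (Hist1h4k), the brightest H4 gene, differed by 0.02 ± 0.27. The 4 genes with a negative difference were H2bc21 at -0.17, H2ac1 at -0.11, H3c7 at -0.06 and H2bc1 at -0.04, and each of these was smaller than its SE.

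**Figure D3:**
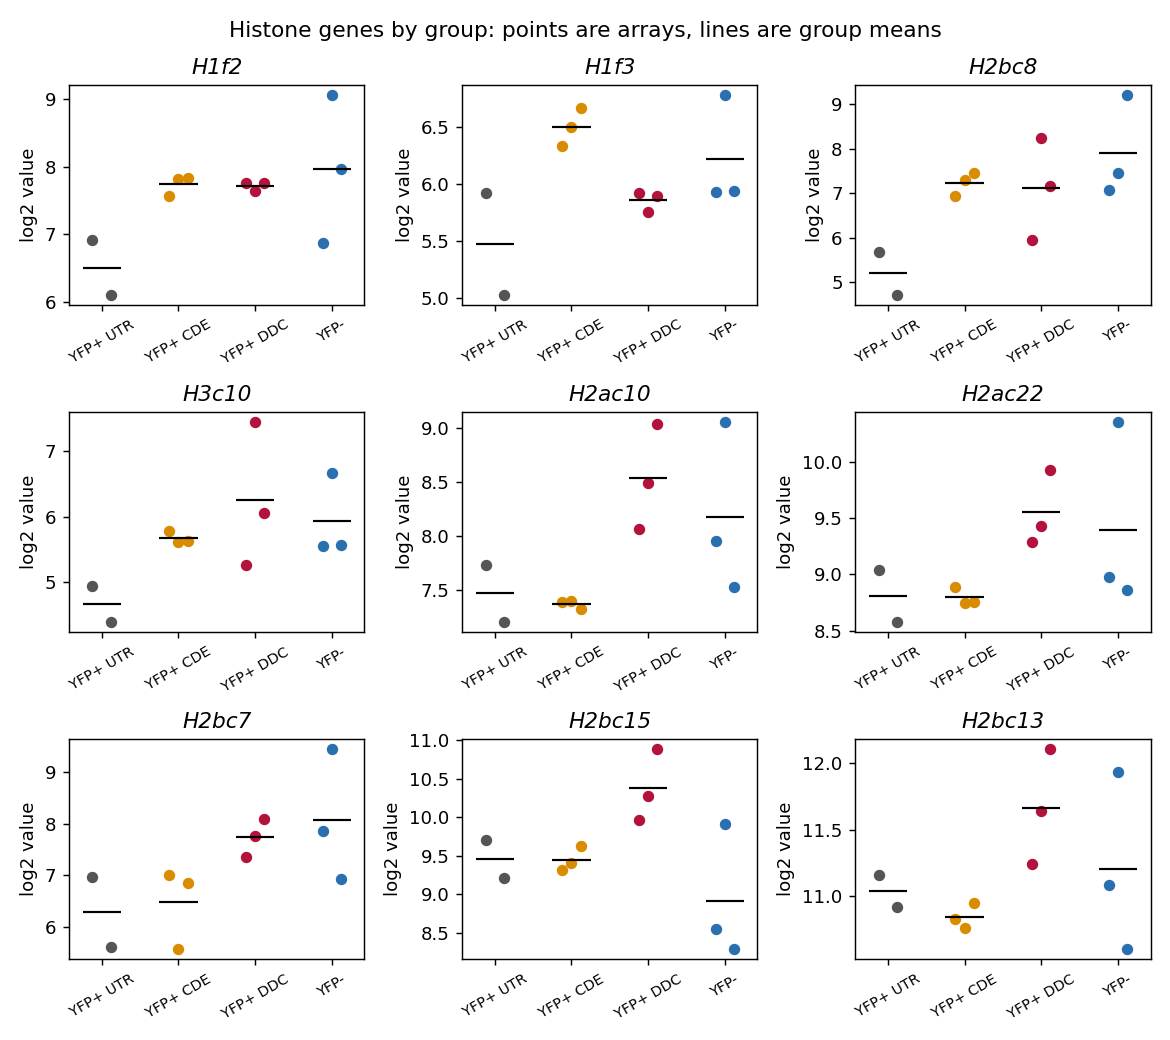
Deposited log2 values of 9 histone genes in the 4 groups, with points for arrays and lines for group means, and a separate axis per gene that does not start at 0. H1f2 and H2bc8 are higher than UTR on every CDE and DDC array, whereas H2ac10, H2ac22, H2bc7, H2bc15 and H2bc13 have every DDC array above every UTR and CDE array.

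Under CDE the linker histone genes were the class with the highest median difference from UTR, and H2bc8 was the gene with the largest. The difference was positive for 23 of the 34 genes, against 51% of all genes, with a median of 0.10 against 0.00 over all genes. All 3 CDE arrays lay above both UTR arrays for 12 genes, against 11.5% of all genes, and below both for 1, H2ac1, against 10.5%. The 12 held all 4 H1 genes beside 8 core histone genes, and the H1 class had a median of 0.94 against -0.06 for H2A, 0.07 for H2B, 0.10 for H3 and 0.35 for H4. With limma, 0 of the 34 genes passed the adjusted threshold, and neither did any other gene (0%). At an unadjusted p under 0.05, 6 were higher and 0 lower, against 3.58% and 2.86% of all genes. The 6 were H1f2, H1f3, H1f4, H2ac21, H2bc8 and H2bc18.

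H1f2 stood at 7.56, 7.82 and 7.84 in CDE, all above its UTR values, a difference of 1.23 ± 0.22 or 2.35-fold with an adjusted p of 0.352. H1f3 (Hist1h1d) stood at 5.92 and 5.03 in UTR and at 6.33, 6.50 and 6.67 in CDE, a difference of 1.02 ± 0.24 or 2.03-fold with an adjusted p of 0.541. The CDE arrays were close together for both genes and the UTR arrays were far apart. Both differences depended on which UTR array was kept. Without UTR replicate 1 they were 1.64 for H1f2 and 1.47 for H1f3. Without UTR replicate 2 they were 0.83 for H1f2 and 0.58 for H1f3. H1f4 (Hist1h1e), a major somatic H1, stood at 5.43 and 5.18 in UTR and at 6.42, 5.94 and 6.11 in CDE, a difference of 0.86 ± 0.23. H1f1 stood at 4.23, 4.23 and 4.22 in CDE, a difference of 0.47 ± 0.22 in a gene near the floor.

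H2bc8 stood at 6.94, 7.29 and 7.45 in CDE, above both UTR arrays and with less spread than under DDC. Its difference was 2.03 ± 0.58, or 4.07-fold, with an adjusted p of 0.66. H3c10 stood at 5.78, 5.61 and 5.63 in CDE, also above both UTR arrays, at 1.01 ± 0.52 (adjusted p 0.832). H2ac21 stood at 6.33, 6.02 and 6.07 in CDE, a difference of 0.66 ± 0.21, and H2bc18 at 6.26, 6.52 and 6.22, a difference of 0.74 ± 0.32. Both genes belong to the chromosome 3 cluster, and their CDE arrays were all above UTR. Some H2A and H2B genes that lay above UTR on every DDC array did not do so under CDE. H2ac10 stood at 7.39, 7.40 and 7.33 in CDE and H2ac22 at 8.89, 8.75 and 8.76, all between their 2 UTR values. The most negative differences were those of H2bc6 at -0.42 ± 0.37, H2ac1 at -0.29 ± 0.25, H2ac20 at -0.23 ± 0.19, H2bc13 at -0.19 ± 0.22, H2bc21 at -0.16 ± 0.18 and H2ac11 at -0.10 ± 0.30.

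The diets share the UTR arrays as their control, so the comparison that bears on a difference between them is DDC against CDE itself. There many H2A and H2B genes had higher values in DDC, and the linker histone genes H1f3 and H1f4 lower ones, again with no histone gene past the adjusted threshold. The class medians of DDC minus CDE were 0.28 for H2A with 9 of 9 genes positive, 0.22 for H2B with 8 of 11 positive, 0.07 for H3 with 5 of 7 positive, 0.05 for H4 with 2 of 3 positive and -0.28 for H1 with 1 of 4 positive. Over all 34 genes 25 were positive and the median was 0.17, against 53% and 0.01 for all genes. All DDC arrays lay above all CDE arrays for 7 genes, H2ac10, H2ac11, H2ac20, H2ac22, H2bc7, H2bc13 and H2bc15, against 9.64% of all genes. They lay below for 1, H1f3, against 10.6%.

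With limma 0 of the 34 genes passed, whereas 269 of all genes passed (1.16%, with 0.418% higher and 0.742% lower). At an unadjusted p under 0.05, 8 were higher and 2 lower, against 6.52% and 8.81% of all genes. The 8 became 4 when the YFP- arrays entered the fit, where 1 of all genes passed the adjusted threshold. The share of all genes at an unadjusted p in that fit was not counted. Without 1 array at a time the count of higher genes ran from 6 to 11. H2ac10 had the lowest adjusted p, 0.0673, for a difference of 1.16 ± 0.24 or 2.23-fold. It passed after quantile normalization (1.23, adjusted p 0.0487) and with array weights (1.22, adjusted p 0.0443). H2ac20 followed at 0.77 ± 0.17 (adjusted p 0.0781), with CDE values of 7.78, 7.45 and 7.44 below every DDC value.

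H2bc7 had the largest difference, 1.26 ± 0.45 (adjusted p 0.243), with CDE values of 7.01, 5.56 and 6.86 that were spread widely. H2bc15 stood at 9.32, 9.40 and 9.62 in CDE and differed by 0.93 ± 0.23 (adjusted p 0.112). H2bc13 stood at 10.82, 10.76 and 10.94 in CDE and differed by 0.82 ± 0.20 (adjusted p 0.106). H2ac22 differed by 0.75 ± 0.18 (adjusted p 0.106). These bright genes had tight CDE values, and DDC replicate 3 was the highest array in each of the 3. H2bc6 stood at 4.32, 5.40 and 4.53 in CDE and at 6.48, 5.88 and 5.34 in DDC, a difference of 1.15 ± 0.34 (adjusted p 0.16) with overlapping arrays.

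In the other direction, H1f3 stood at 5.92, 5.75 and 5.89 in DDC, below every CDE array, a difference of -0.65 ± 0.21 (adjusted p 0.2). H1f4 stood at 5.38, 5.39 and 6.08 in DDC, a difference of -0.54 ± 0.21 (adjusted p 0.271), with DDC replicate 3 inside the CDE range. H4c12 differed by -0.34 ± 0.24. H1f2 and H2bc8, which lay above UTR under both diets, differed by less than their SE between the diets. The remaining negative values, for H2bc1, H2bc21, H3c7 and H3c15, were under 0.1 in size.

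**Figure D4:**
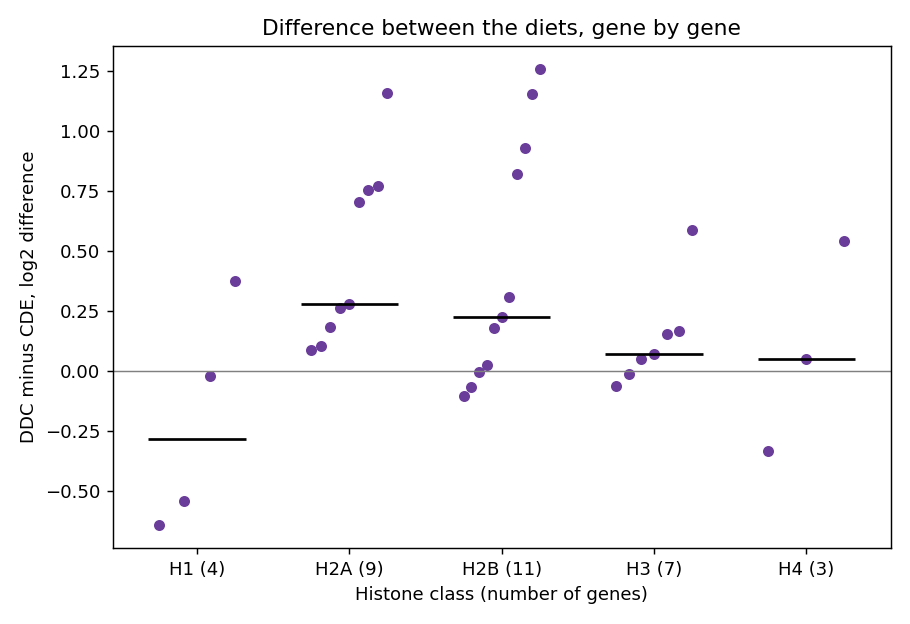
Fitted log2 difference DDC minus CDE for each histone gene (points) in the 5 classes, with a line at the class median and the number of genes in brackets. The H2A points all lie above 0 and the H2B points mostly do, with medians of 0.28 and 0.22, whereas 3 of the 4 H1 points lie below 0. None of the 34 genes passed the adjusted threshold.

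Genes of DNA synthesis and division were measured beside the histones from lists named for their roles. Each array was described by the median deviation of a list from the UTR mean. For the histone genes this was 0.37, 0.35 and 0.65 in DDC and 0.18, 0.01 and 0.08 in CDE. For 29 S phase genes it was 0.09, 0.54 and 0.29 in DDC and -0.16, 0.14 and 0.13 in CDE. For 14 genes of G2 and mitosis it was 0.26, 0.84 and 0.95 in DDC and -0.12, 0.27 and 0.24 in CDE. For the whole histone set all DDC arrays were above all CDE arrays, while for both other lists DDC replicate 1 lay within the CDE range. That separation was not seen in the 24 histone genes above the lower quartile. There DDC replicate 1, at 0.47, also lay within the CDE range of 0.10 to 0.55. DDC replicate 1 had the lowest S phase median of its group, and its median over the whole histone set was close to that of replicate 2. Whether the share of dividing cells moved with the histone values was not tested, and in bulk RNA fewer cells with a transcript and less transcript per cell cannot be told apart.

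**Figure D5:**
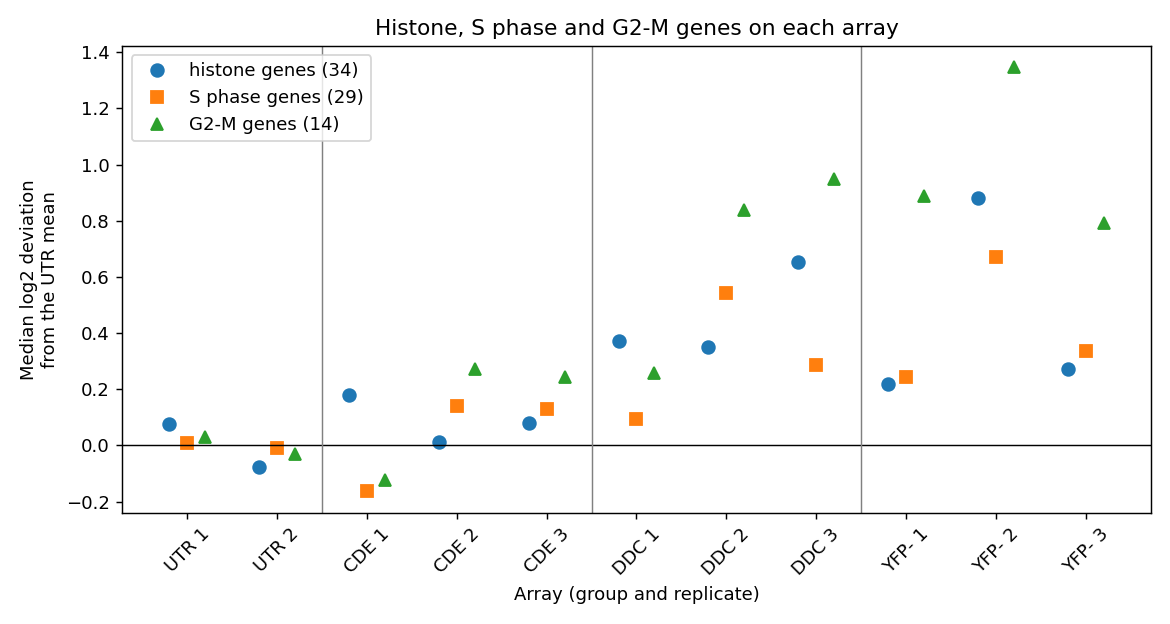
Median log2 deviation from the UTR mean on each of the 11 arrays for the 34 histone genes (circles), 29 S phase genes (squares) and 14 G2-M genes (triangles). The histone median is 0.35 to 0.65 in DDC, 0.01 to 0.18 in CDE and 0.22 to 0.88 in YFP-, and YFP- replicate 2 is the highest array for all 3 lists.

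In DDC minus UTR, 26 of the 29 S phase genes had a positive difference with a median of 0.32, and 1 of them passed. That gene was Uhrf1, which reads newly replicated DNA for methylation, at 1.32 ± 0.15 (adjusted p 0.0308). The call was lost in every fit that left out 1 array, with all 11 arrays and with the replicate number as a block (adjusted p 0.107). All 14 G2-M genes had positive differences, with a median of 0.67, and 0 passed by limma while 12 had an unadjusted p under 0.05. Among them were Top2a, a topoisomerase, at 1.77 ± 0.50 (adjusted p 0.251), Cdk1, the mitotic kinase, at 1.67 ± 0.45 (adjusted p 0.239), and the proliferation marker Mki67 at 1.29 ± 0.32 (adjusted p 0.199). Pcna, the sliding clamp of the replication fork, differed by 0.01 ± 0.15. In CDE minus UTR, 18 of 29 S phase genes and 12 of 14 G2-M genes were positive, with medians of 0.02 and 0.11, and none passed. Mki67 differed there by 0.02 ± 0.32.

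Genes of histone mRNA processing mostly had small differences. Of 14 such genes, 3 were positive in DDC minus UTR with a median of -0.11 and 6 in CDE minus UTR with a median of -0.03, and none passed. Slbp, the stem-loop binding protein itself, differed by 0.33 ± 0.25 (adjusted p 0.705) under DDC and 0.11 ± 0.25 (adjusted p 0.99) under CDE. Casp8ap2, a protein of the histone locus body also called FLASH, differed by -0.45 ± 0.13 (adjusted p 0.251) under DDC. Rnu7, the U7 small nuclear RNA that guides the cut of histone transcripts, was the exception in size. It stood at 4.10 and 3.83 in UTR, at 5.82, 6.20 and 5.74 in CDE and at 3.24, 3.56 and 3.48 in DDC. The CDE arrays were far above all others, and UTR and DDC values were near the floor of the array. DDC minus CDE was -2.50 ± 0.15 with an adjusted p of 0.0017, and CDE minus UTR was 1.95 ± 0.17 with an adjusted p of 0.0558. The latter passed under median centring (adjusted p 0.0402), with dim genes left out (0.0335), with a trended robust prior (0.0181) and with array weights (0.0407). It missed under quantile normalization, with all 11 arrays, with the replicate number as a block and without any 1 CDE array. In each of those fits 0 of all genes passed. Leaving out 1 array at a time gave differences of 1.81 to 2.09. Whether the array reports U7 RNA rather than an overlapping transcript was not tested.

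Other histone handling genes had no call among the YFP+ groups. None of 15 measured histone chaperone genes passed in the 3 comparisons among YFP+ groups, with Chaf1a, a subunit of the chromatin assembly factor at replication forks, at 0.41 (adjusted p 0.665) in DDC minus UTR. Of the 10 genes listed as replication-independent histones, 9 were positive in DDC minus UTR with a median of 0.26. In CDE minus UTR 8 were positive with a median of 0.15, and none passed in either comparison. H1f10 differed by 0.78 ± 0.24 (adjusted p 0.297) and H2az1, the H2A.Z gene, by 0.53 ± 0.13 (adjusted p 0.208) in DDC minus UTR. H3f3b, a gene for the replacement histone H3.3, differed by 0.15 ± 0.11 (adjusted p 0.683).

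Markers of other cell types were read beside these differences. On the YFP+ arrays the lymphocyte list of 8 genes ran from 4.22 to 4.48, near the lower quartile. The endothelial list of 7 ran from 5.10 to 5.53 in DDC and from 5.48 to 6.03 in UTR, and the macrophage list of 7 from 5.59 to 6.0 in DDC, 5.87 to 6.86 in CDE and 6.34 to 6.47 in UTR. The stellate list of 6 ran from 5.01 to 5.17 in DDC and from 5.21 to 5.23 in UTR. The mean levels of the macrophage and stellate lists were lower on every DDC array than on both UTR arrays. Those of the endothelial and lymphocyte lists overlapped. In DDC minus UTR 6 of the 7 macrophage genes were negative, with a median of -0.51. Of the 6 stellate genes only 2 were negative and 4 were positive, with a median of 0.02. The neutrophil and monocyte list of 6 ran from 4.66 to 5.64 in DDC and 4.82 to 4.98 in UTR, the erythroid list of 3 from 3.85 to 5.26 and 3.85 to 4.16, and the hepatocyte list of 8 from 7.82 to 8.18 and 7.78 to 7.86. In CDE the hepatocyte list reached 7.92 to 9.15. In DDC minus UTR 6 of the 8 hepatocyte genes were negative, with a median of -0.17. The other 2 were positive, the higher at 3.07. The part of such cells in the histone values was not tested.

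Untreated YFP+ cells were last set against YFP- cells, in the fit of all 11 arrays. Of the 34 histone genes, 5 were lower in UTR and 0 higher at an adjusted p of 0.05, against 8.46% lower and 10.4% higher of all genes (18.9% in either direction). The share of 5 in 34 thus lies between the background of lower calls and that of calls in either direction. The median difference was -0.50 against -0.01 over all genes, 6 genes were positive against 49.1% of all genes, and 12 were lower and 0 higher at an unadjusted p under 0.05, against 14.8% and 16.7%. Both UTR arrays lay below all YFP- arrays for 11 genes, against 20.5% of all genes, and above them for H2ac1 and H2ac6, against 22.5%.

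H4c9 stood at 5.34, 7.02 and 7.31 in YFP-, and UTR was lower by 2.38 ± 0.57, or 5.21-fold (limma, adjusted p 0.0179). H2bc8 stood at 7.08, 7.45 and 9.21 in YFP-, and UTR was 6.57-fold lower (difference -2.72 ± 0.73, adjusted p 0.0306). H1f4 stood at 5.98, 6.67 and 7.30 in YFP-, with a difference of -1.35 ± 0.36 (adjusted p 0.0293). For these 3 genes all YFP- arrays were above both UTR arrays, and YFP- replicate 3 was the highest. H3c15 stood at 5.88, 5.49 and 5.60 in YFP-, with a difference of -1.03 ± 0.30 (adjusted p 0.0411). H2ac4, a dim gene in YFP+ cells at 3.48 and 2.96 in UTR, stood at 5.72, 6.59 and 3.98 in YFP- (difference -2.21 ± 0.62, adjusted p 0.036). H1f2 missed the threshold at -1.45 ± 0.51 (adjusted p 0.0815), with YFP- values of 6.87, 9.06 and 7.96.

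These calls rest on few arrays. There were 0 with only the 5 arrays compared (lowest adjusted p 0.0553), where 931 of all genes passed, against 4373 in the main fit. The histone median was -0.62 without UTR replicate 1 and -0.36 without UTR replicate 2. Without YFP- replicate 1 there were 5 histone genes, all lower, with 5817 of all genes. Without YFP- replicate 3 there were 6, all lower, with 4208 of all genes. Without YFP- replicate 2 there were 4 lower and 1 higher, with 4768 of all genes. The higher one was H2bc15 at 1.05 (adjusted p 0.0343). YFP- replicate 2 was the highest of its group for 22 of the 34 genes and also had a lymphocyte list level of 10.93, against 4.97 on the lowest YFP- array. YFP- is a mixture of cell types, and a difference from it cannot be told apart from a difference in cell makeup. In the same comparison 13 of 14 G2-M genes had a negative difference, with a list median of -0.80. At an adjusted p of 0.05 (limma) 7 were lower in UTR and 0 higher, against 8.46% and 10.4% of all genes. Examples are Cdk1 at -2.54 ± 0.43 (adjusted p 0.0033) and Mki67 at -1.52 ± 0.38 (adjusted p 0.0222). Of 29 S phase genes 4 were lower and 1 higher past the threshold. Mcm3 at -1.82 ± 0.25 (adjusted p 0.0012) and Pcna at -0.83 ± 0.21 (adjusted p 0.0213) were among the lower. The higher one was Gins2 at 0.89 ± 0.26 (adjusted p 0.0432). Of the processing genes, Slbp was lower at -0.88 ± 0.25 (adjusted p 0.0411), Casp8ap2 at -0.91 ± 0.17 (adjusted p 0.0051) and Eri1, the exonuclease that trims histone mRNA ends, at -1.15 ± 0.23 (adjusted p 0.007). With only the 5 arrays compared, these 3 processing genes, Mki67, Pcna and Gins2 also missed the threshold.

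Across the 4 groups the mean was highest in YFP- for 16 of the 34 genes, in DDC for 13, in CDE for 3 and in UTR for 2. It was lowest in UTR for 20, in CDE for 7, in YFP- for 4 and in DDC for 3. H2bc8 ran from 5.20 ± 0.68 (SD, n = 2) in UTR to 7.12 ± 1.15 (n = 3) in DDC, 7.23 ± 0.26 (n = 3) in CDE and 7.92 ± 1.14 (n = 3) in YFP-, and the last 3 did not differ beyond their spread. H1f2 had the same shape, at 6.51 ± 0.57 in UTR, 7.72 ± 0.06 in DDC, 7.74 ± 0.16 in CDE and 7.96 ± 1.10 in YFP-. H2bc15 had another order, with 8.91 ± 0.87 in YFP-, 9.45 ± 0.16 in CDE, 9.46 ± 0.35 in UTR and 10.38 ± 0.47 in DDC, where only DDC stood clear of the other YFP+ groups. H2ac10 ran from 7.38 ± 0.04 in CDE and 7.47 ± 0.37 in UTR to 8.18 ± 0.79 in YFP- and 8.53 ± 0.48 in DDC, with YFP- overlapping UTR and DDC.

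Annotated starts of 3 pairs of genes lie head to head within 500 bases. H2bc8 and H2ac8 have annotated starts 180 bases apart, yet H2ac8 averaged 3.46 in YFP+ with a DDC minus UTR difference of 0.10, against 6.68 and 1.92 for H2bc8. H2ac22 and H2bc22 start 240 bases apart, averaged 9.08 and 3.82, and had DDC minus UTR differences of 0.74 and 0.45. H2ac1 and H2bc1 start 281 bases apart and had differences of -0.11 and -0.04. Levels of different probes are given here only to show that H2ac8 and H2bc22 were near the floor. In RefSeq 4 of the genes, H2bc4, H2bc6, H2bc21 and H2bc22, span over 1000 bases, more than the short intronless form that is usual for the family. The median DDC minus UTR difference was 0.36 for these 4 and 0.57 for the other 30, and that of CDE minus UTR was -0.01 and 0.10.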

How the data were processed

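The authors deposited 1 log2 value per feature and array for 11 arrays. The sources used here do not give the background correction, normalization, probe summary or genome build. Base 2 is an inference from the value range, and every difference and fold rests on it. Labelling followed a standard Affymetrix protocol per the labels' protocols, which do not say how RNA without a poly(A) tail was captured. Of 25206 features 23185 had 1 symbol, and 2021 were unnamed and not tested.

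A model of group means (lmFit and eBayes of limma 3.58.1, R 4.3.3) was run on the values as deposited. The 3 comparisons among YFP+ groups used the 8 YFP+ arrays, because the YFP- arrays were known to vary more, and UTR minus YFP- used all 11. Tests were two-sided, adjusted by Benjamini-Hochberg over all 23185 genes, with a threshold of 0.05. Differences carry the SE of the model and group means the SD. Precision is limited by how few arrays there are. The model was tested on simulated data. The genes, lists and fits were chosen with earlier results of these data known. Named genes are, per comparison, the members past the threshold or else the 6 largest differences each way, the brightest member of each class, testis-type members, and from each pathway list up to 4 genes past the threshold or else up to 2, always with Slbp, Rnu7, Pcna, Mki67 and H3f3b. Members outside this rule were named after their values were seen. Alternatives were other arrays in the fit, quantile normalization, median centring, a filter on dim genes, a trended robust prior, array weights, the replicate number as a block, and leaving out each array.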

Additional observations from a re-analysis of the deposited data

Results flagged for a closer look

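Rnu7, the U7 small nuclear RNA, differed between the diets at -2.5 log2 units (DDC minus CDE, limma, adjusted p 0.0017). All 3 CDE arrays lay above every DDC array, while DDC lay below and CDE above the UTR mean. Uhrf1 differed between the diets at 0.8 log2 units (DDC minus CDE, limma, adjusted p 0.0396), a call that was lost when any 1 array of the diets was left out, with all 11 arrays (adjusted p 0.399) and with the replicate number as a block (adjusted p 0.0747). No histone gene of the 34 differed between the diets past the threshold. No group had 4 or more arrays, so no array was tested as standing apart from its group.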

How the results depend on the processing

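The number of arrays is the main limit, above all the 2 UTR arrays. Medians of the histone genes kept their sign under every alternative run. Leaving out 1 array at a time gave medians of 0.30 to 0.54 for DDC minus UTR, 0.04 to 0.19 for CDE minus UTR, 0.11 to 0.29 for DDC minus CDE and -0.76 to -0.26 for UTR minus YFP-. Counts past the threshold are given for the fits that kept 2 UTR arrays. DDC minus UTR gave 1 histone gene without DDC replicate 1, with 5 of all genes, and 0 without DDC replicate 2 or 3. CDE minus UTR gave 0, with 0 of all genes, and DDC minus CDE gave 0, with 16 to 123 of all genes. UTR minus YFP- gave 5 or 6, with 4208 to 5817 of all genes, and 1 was higher without YFP- replicate 2. In the same fits and order, genes higher at an unadjusted p, a measure added after the data were seen, ran from 13 to 16, 5 to 6, 6 to 11 and 0 to 1. In DDC minus UTR and CDE minus UTR they were fewer without UTR replicate 2.

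With the alternatives other than leaving out arrays, the count of histone genes past the threshold in DDC minus CDE went from 0 to 1 under quantile normalization and under array weights, where 271 and 301 of all genes passed. In UTR minus YFP- it went from 5 to 0 with only the 5 arrays compared, where 931 of all genes passed. Genes higher at an unadjusted p fell from 14 to 4 in DDC minus UTR and from 8 to 4 in DDC minus CDE with all 11 arrays, and went from 0 to 1 in UTR minus YFP- with only the 5 arrays compared. Shares of all genes at an unadjusted p in these fits were not counted, and the cause of these changes was not tested. Same-numbered arrays did not deviate together, with correlations of -0.07 to 0.13 and 1 of 15 pairs over 0.1. With the replicate number as a block, 2 histone genes passed in UTR minus YFP-, with 3696 of all genes. Under the same block the differences of Pcna (-0.0406) and H4c12 (-0.0387) in DDC minus UTR and of Mki67 (-0.1575) in CDE minus UTR changed sign.

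Of 1421 values of single genes under an alternative, 1257 kept direction and side of the threshold, 105 lost a call, 12 gained one and 47 changed sign, none of these past the threshold. Median centring gave -0.0178 for Pcna and -0.0073 for H4c12 in DDC minus UTR. Array weights gave -0.0352 for Mki67 in CDE minus UTR and 0.0412 for H2bc8 in DDC minus CDE. Quantile normalization gave 0.0327 for H1f2 in DDC minus CDE and, in UTR minus YFP-, 0.0147 for H3f3b, 0.0938 for H2bc13, 0.0484 for H4c12 and 0.0516 for H2bc1. Leaving out 1 array at a time gave, in DDC minus UTR, -0.3949 to 0.0586 for H2ac1, -0.0631 to 0.0138 for H2bc1, -0.2618 to 0.1399 for H3c7, -0.1442 to 0.248 for H4c12 and -0.105 to 0.1411 for Pcna. The ranges were, in CDE minus UTR, -0.4203 to 0.2194 for H2ac11, -0.2412 to 0.2194 for H2ac22, -0.0224 to 0.0733 for H2bc1, -0.0039 to 0.3434 for H3c14, -0.0083 to 0.1904 for H3f3b, -0.1934 to 0.3654 for Mki67 and -0.0823 to 0.2644 for Slbp. The ranges were, in DDC minus CDE, -0.1124 to 0.0266 for H1f2, -0.1063 to 0.3472 for H2ac1, -0.6651 to 0.4818 for H2bc8 and -0.0147 to 0.3301 for H3c14. The ranges were, in UTR minus YFP-, -0.0324 to 0.0094 for H2bc1, -0.4693 to 0.198 for H2bc13, -0.3774 to 0.1772 for H3c14, -0.3967 to 0.0767 for H4c12 and -0.1234 to 0.277 for Rnu7.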
